A study of Mus musculus with 6 samples.

Results

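A set of 10 genes that move anions across the colonic epithelium, or that signal through guanylin, was followed in RNA-seq of colon epithelial cells from mice with and without epithelial Nsd2. The genes were Slc26a2, Slc26a3, Cftr, Slc12a2, Best2, Kcnq1, Guca2a, Guca2b, Gucy2c and Prkg2. They were picked by symbol, with no measured value in the rule but with earlier results of these data known, and each was found as 1 row, 10 of 10, in a table of 55487 genes. Of the 6 libraries, 3 came from Nsd2 f/f mice, which the labels call WT and in which both copies of Nsd2 carry loxP sites but are left in place, and 3 from Nsd2 Vil-KO mice, in which the same floxed alleles were combined with a Villin-Cre transgene. Within the gut, Villin drives Cre in the epithelium, so Nsd2, which encodes a histone H3K36 methyltransferase, is kept in other cells there. Per the study's methods, the mice were on the C57BL/6J background with littermate controls and 2 months old, and colitis was induced with 2% dextran sodium sulphate (DSS) in the drinking water, which injures the colonic epithelium. The intestinal epithelial cells (IECs) were freed from colon pieces with EDTA, without a sort. The day of treatment on which they were taken for sequencing is not given in the sources used here. The labels number the replicates without saying whether each came from a separate animal, so p-values measure the spread between these libraries.

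The colonic surface takes up chloride in exchange for bicarbonate and releases chloride, with water following, when secretion is switched on. Absorption uses the apical exchanger SLC26A3 (DRA), whose loss causes congenital chloride diarrhoea. Secretion needs basolateral entry through the cotransporter NKCC1 (Slc12a2), recycling of potassium through KCNQ1, and an apical exit such as CFTR. Guanylin and uroguanylin, small peptides released into the gut lumen, bind the receptor guanylyl cyclase GUCY2C on epithelial cells, and the cGMP that it makes activates the kinase PRKG2, which phosphorylates CFTR and so opens it.

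The libraries held 15439123 to 20350539 counted reads, with a median of 18209316. Values are CPM, counts scaled to a common library size with TMM factors, given for replicates 1, 2 and 3 of each genotype in that order. Nsd2 itself stood at 47.9, 51.2 and 24.6 CPM in Nsd2 f/f and at 24.2, 10.4 and 20.8 CPM in Nsd2 Vil-KO, a log2 fold change of -1.16 ± 0.39 (SE) with the lowest control just above the highest knockout library. The libraries labelled Nsd2 f/f replicate 3 and Nsd2 Vil-KO replicate 2 stood apart from the other 4. Both held Xist transcripts, at 347 and 204 CPM, and 4 Y-linked genes summed to 0.242 and 0 CPM in them against 187 to 204 in the others. Their mean Spearman correlation with the other 4 across genes was 0.933, against 0.981 among those 4. Mitochondrial genes took 19.6% of counts in Nsd2 f/f replicate 3 and 5.51% to 9.13% elsewhere. Each genotype thus held 1 such library, and results are also given for the 4 libraries without Xist (2 per genotype) and from a model with Xist presence added as a term. In the 10 epithelial marker genes, among them Epcam and Cdh1, the summed level was 15614 to 25617 CPM, and the 10 small intestinal markers summed to 31.6 to 81.6 CPM.

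Of the 10 genes, Best2 was lower in Nsd2 Vil-KO and past the screening criterion, and the other 9 did not pass. The criterion used here was a fold change above 1.2 with an unadjusted p below 0.05. It follows the thresholds in the results text of the study, which does not say whether p was adjusted, while its methods name an adjusted p, so both counts are given. In the same edgeR fit 482 of 14650 tested genes passed, 3.29%, of which 241 were higher (1.65%) and 241 lower (1.65%). No tested gene reached an adjusted p below 0.05 (edgeR quasi-likelihood test, smallest adjusted p = 0.992), 482 had an unadjusted p below 0.05, and DESeq2 gave 2 genes past the adjusted threshold, none of them a member. The adjusted p of the 10 lay between 0.992 and 0.999 (edgeR). Gucy2c was the only member whose libraries did not overlap between genotypes, 1 of 10, beside 9.90% of all tested genes. The median log2 fold change of the 10 was -0.15, with 4 higher and 6 lower, and that of all tested genes was 0.00. Every member had at least 10 counts in each library and entered the test.

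**Figure D1:**
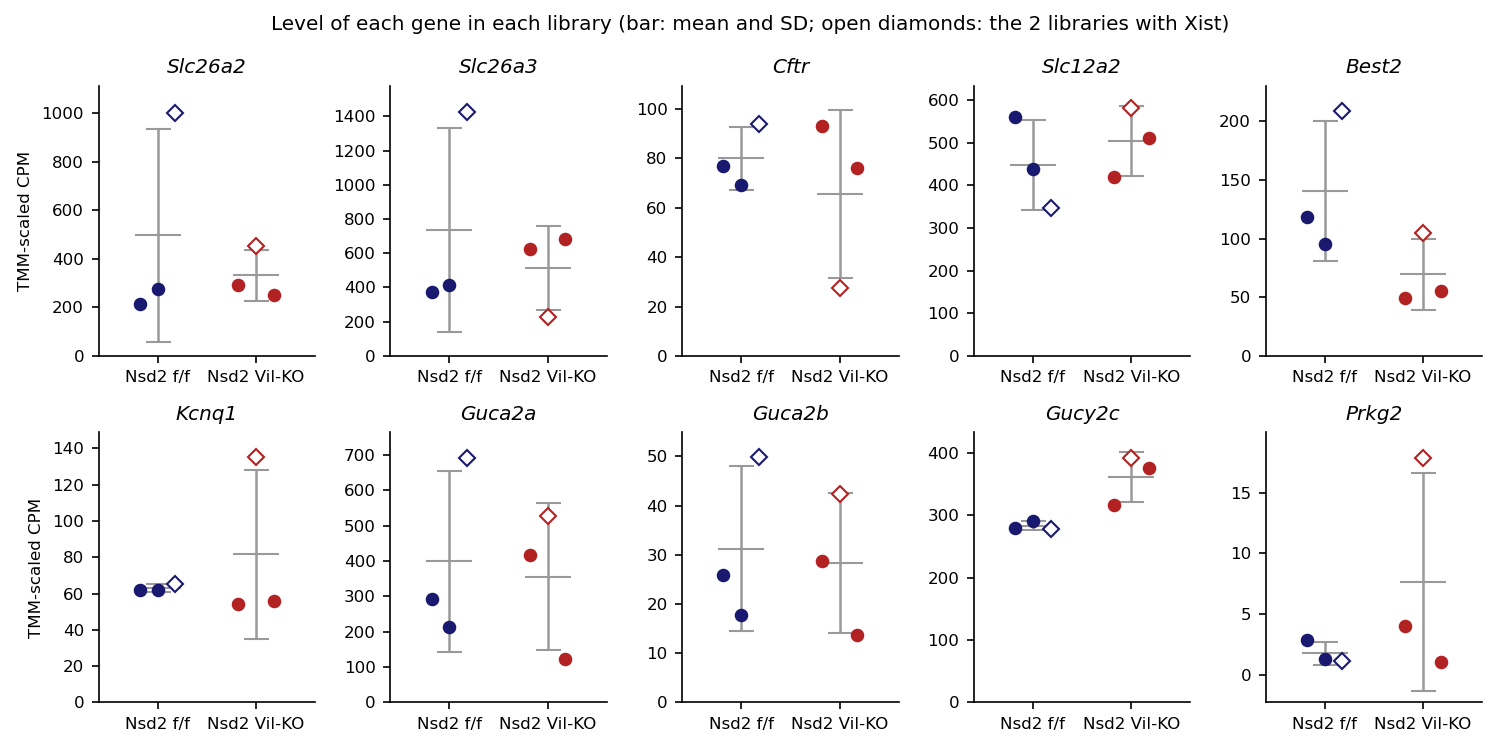
TMM-scaled CPM (vertical axis, linear, from 0 except for Prkg2, whose SD bar reaches below 0) of each of the 10 genes in 3 Nsd2 f/f and 3 Nsd2 Vil-KO libraries. Points are libraries, the grey bar is the mean with its SD, and open diamonds mark the 2 libraries with Xist. Only for Gucy2c do the points of the genotypes not overlap.

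Slc26a3, the chloride and bicarbonate exchanger of the apical membrane, is annotated on chr12:31390871-31473917 (GRCm38, plus strand). RefSeq lists a transcription start inside that span, and the 250 bases before it are shown because a match to an HNF1 motif lies there. HNF1 factors are transcription factors of the intestinal epithelium. Capitals mark the match, and the sequence is from RefSeq (GRCm38.p6), chr12:31437969-31438218, plus strand, 5′ to 3′.
Slc26a3: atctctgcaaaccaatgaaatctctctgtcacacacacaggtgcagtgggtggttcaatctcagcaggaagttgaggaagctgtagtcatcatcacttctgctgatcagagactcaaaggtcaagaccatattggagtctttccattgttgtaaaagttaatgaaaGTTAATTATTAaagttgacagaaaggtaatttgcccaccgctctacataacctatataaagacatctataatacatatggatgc
The match ran from position -84 to -74 before the start, on the plus strand. The motif, searched on both strands, occurred in 0.140% of 32851 promoter windows of 300 bases. Windows were at hand for 4 of the 10 genes, Slc26a3, Cftr, Guca2a and Guca2b, and the other 3 did not hold this motif. Neither the CDX2 core TTTATNG, found in 10.9% of all windows, nor the HNF4A motif CAAAGTCCA, found in 0.475%, occurred in any of the 4.

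Slc26a3 stood at 371, 414 and 1424 CPM in Nsd2 f/f and at 626, 229 and 686 CPM in Nsd2 Vil-KO. The highest and the lowest value both came from the libraries with Xist, 6.21-fold apart, and the genotypes overlapped. Over all 6 libraries the Nsd2 f/f mean was 737 ± 596 CPM (SD, n = 3) and the knockout mean 514 ± 248 CPM (SD, n = 3). The log2 fold change was -0.52 ± 0.63 (SE), with a 95% interval from -1.999 to 0.96. In the 4 libraries without Xist the direction turned: both knockout libraries lay above both controls, with a log2 fold change of 0.75 ± 0.12 (SE; edgeR, adjusted p = 0.182), past the criterion. In that fit 11% of tested genes passed the criterion, and 44.0% of genes did not overlap between genotypes in these 4 libraries. Exact permutation over the 6 libraries gave p = 0.7 (two-sided), where 0.1 is the smallest p that 3 against 3 allows.

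Slc26a2 encodes a sulphate transporter that is abundant in the colon and whose loss in people causes skeletal dysplasias. It lies on chromosome 18. Its levels were 216, 274 and 1001 CPM in Nsd2 f/f and 292, 451 and 252 CPM in Nsd2 Vil-KO. Nsd2 f/f replicate 3 was again the highest library, 4.64-fold above the lowest control, and the other 5 overlapped. The log2 fold change of -0.58 ± 0.59 (SE, 95% interval from -1.98 to 0.82) became 0.44 without that library and 0.16 in the 4 libraries without Xist.

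The relation between the 2 exchangers differed in 1 library. Slc26a3 stood above Slc26a2 in 5 libraries, by a ratio of CPM between 1.42 and 2.72, and in Nsd2 Vil-KO replicate 2 it stood below, at a ratio of 0.509. In that library Slc26a3 was at its lowest value of the 6 while Slc26a2 was at its second highest. The 11 markers of mature surface colonocytes, cells known to carry both exchangers, summed to 30261 CPM in Nsd2 f/f replicate 3 and to between 12378 and 16566 CPM in the other 5. Lypd8 made up most of this sum, with 21618 CPM in Nsd2 f/f replicate 3 and 13592 CPM in Nsd2 Vil-KO replicate 2. In Nsd2 Vil-KO replicate 2, 4 of the 11 markers were at their lowest and 1 at its highest. Of these markers 8 were highest in Nsd2 f/f replicate 3, none of the 11 passed the criterion, and their median log2 fold change was -0.65. Their part in the exchanger values was not tested. In bulk RNA, fewer cells of a type and less RNA per cell cannot be told apart.

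Cftr, the cAMP- and cGMP-regulated chloride channel (chr6:18170687-18322768, plus strand), stood at 76.7, 69.3 and 93.9 CPM in Nsd2 f/f and at 93.0, 27.6 and 76.2 CPM in Nsd2 Vil-KO. A single library was low, Nsd2 Vil-KO replicate 2, and the other 5 spanned 69.3 to 93.9 CPM with the genotypes interleaved. The log2 fold change was -0.29 ± 0.41 (SE), with a 95% interval from -1.26 to 0.69, and it was 0.08 without that library. The opposite-strand gene Gm15592, which shares 129 exon bases with Cftr, had at most 0.146 CPM in any library.

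Best2 encodes bestrophin 2, a calcium-activated anion channel with a role in bicarbonate secretion that is found in goblet cells of the mouse colon. It lies on chr8:85007202-85014531 (minus strand). Its levels were 118, 95.6 and 209 CPM in Nsd2 f/f and 49.2, 104 and 55.1 CPM in Nsd2 Vil-KO. Nsd2 Vil-KO replicate 2 lay between the controls, and the other 2 knockout libraries lay below every control. The mean fell from 141 ± 59.7 CPM (SD, n = 3) to 69.6 ± 30.3 CPM (SD, n = 3). The log2 fold change was -1.02 ± 0.40 (SE), with a 95% interval from -1.95 to -0.08 (edgeR, unadjusted p = 0.0365), where the exact permutation test gave p = 0.2 (two-sided). In the 4 libraries without Xist it was -1.03 ± 0.14 (SE; edgeR, adjusted p = 0.125), and with Xist as a covariate -1.02 ± 0.13 (SE; edgeR, adjusted p = 0.619). The call was lost when Nsd2 f/f replicate 3 was left out (-0.62), and also when either knockout replicate 1 (-0.82) or 3 (-0.87) was.

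Goblet cell markers are given beside Best2. Of the 10 markers 9 had a lower fitted value in Nsd2 Vil-KO (median of the 10, -0.52 on the log2 scale), while 50.1% of all tested genes had a higher one. The criterion was passed by 1 of the 10, beside 3.29% of all tested genes. The gene was Clca1, which encodes a secreted mucus protein (-1.64 ± 0.61, SE). The summed level of the 10 was 14505 to 16602 CPM in Nsd2 f/f and 10851 to 11545 CPM in Nsd2 Vil-KO, without overlap. Taken singly, 2 of the 10 did not overlap between genotypes, both lower in Nsd2 Vil-KO, beside 9.90% of all tested genes. Every marker was detected in all libraries. Per 1000 CPM of the summed markers, Best2 stood at 7.20, 6.59 and 12.6 CPM in Nsd2 f/f and at 4.26, 9.62 and 4.91 CPM in Nsd2 Vil-KO. On that scale the genotypes overlapped through Nsd2 Vil-KO replicate 2. The part of goblet cell number in the Best2 value was not tested.

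On the basolateral side, Slc12a2, the sodium, potassium and chloride cotransporter that loads cells with chloride (chromosome 18), stood at 559, 438 and 347 CPM in Nsd2 f/f and at 419.7, 582 and 511 CPM in Nsd2 Vil-KO. The genotypes overlapped, and the highest library was only 1.68-fold above the lowest. Its log2 fold change was 0.17 ± 0.26 (SE), with an interval from -0.43 to 0.77. This interval spans folds of 0.740 to 1.71.

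Kcnq1 encodes the potassium channel that keeps the driving force for chloride exit (chr7:143106362-143427042, plus strand). Its level was 61.7, 62.1 and 65.4 CPM in Nsd2 f/f, and 54.0, 135 and 55.7 CPM in Nsd2 Vil-KO. The 5 libraries other than Nsd2 Vil-KO replicate 2 were even, with both remaining knockout libraries below every control. Its fitted log2 fold change of 0.37 ± 0.37 (SE, 95% interval from -0.49 to 1.24) rested on the high library and was -0.20 without it. Kcnq1ot1, an antisense RNA that shares 121 exon bases with Kcnq1, was at 0.222 CPM in Nsd2 Vil-KO replicate 2 and at 0.727 to 3.22 CPM elsewhere. Whether the counting used strand is not given in the sources used here.

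**Figure D2:**
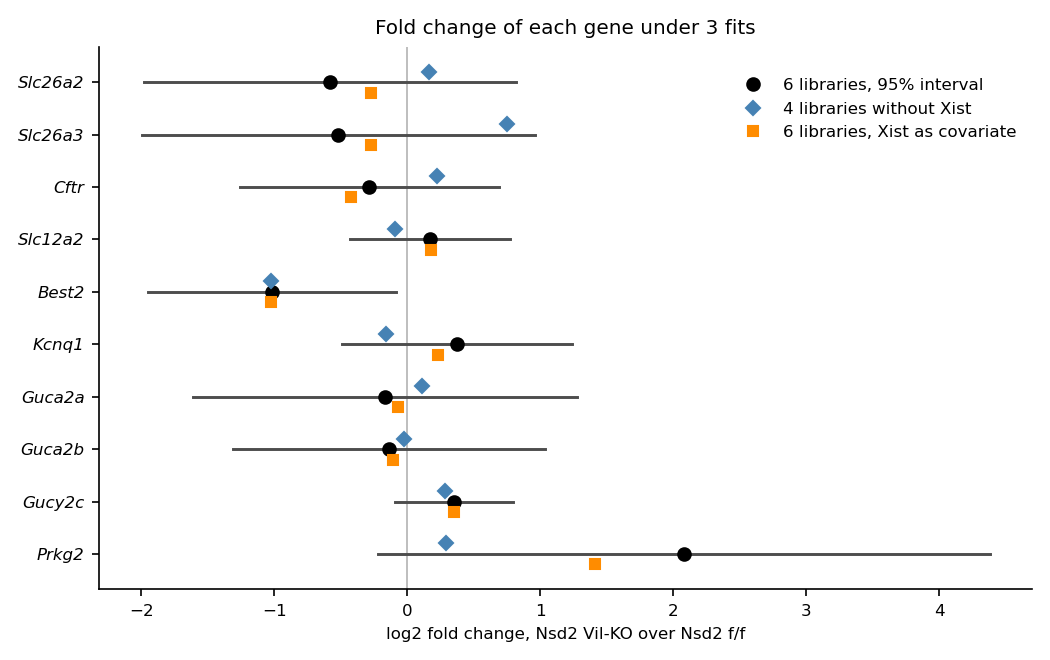
Fitted log2 fold change of Nsd2 Vil-KO over Nsd2 f/f (horizontal axis) for each gene, from all 6 libraries (black, with the 95% interval), from the 4 libraries without Xist (blue) and with Xist as a covariate (orange). Only the interval of Best2 leaves out 0, and the blue points of Slc26a2, Slc26a3, Cftr, Slc12a2, Kcnq1 and Guca2a lie on the other side of 0 from the black ones.

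The ligands Guca2a (guanylin) and Guca2b (uroguanylin) are neighbours on chromosome 4, at chr4:119637704-119639471 on the plus strand and chr4:119656607-119658954 on the minus strand, with 17135 bases between their ends. The 250 bases before each RefSeq start are shown because their transcripts had similar patterns over the libraries. They are written 5′ to 3′ on the strand of the gene (RefSeq, GRCm38.p6), from chr4:119637482-119637731 and chr4:119658946-119659195, with no capitals since no searched motif occurred.
Guca2a: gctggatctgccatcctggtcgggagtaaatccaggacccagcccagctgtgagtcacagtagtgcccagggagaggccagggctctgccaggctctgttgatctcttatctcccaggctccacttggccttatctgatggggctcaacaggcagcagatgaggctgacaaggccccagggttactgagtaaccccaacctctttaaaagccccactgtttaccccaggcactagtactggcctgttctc
Guca2b: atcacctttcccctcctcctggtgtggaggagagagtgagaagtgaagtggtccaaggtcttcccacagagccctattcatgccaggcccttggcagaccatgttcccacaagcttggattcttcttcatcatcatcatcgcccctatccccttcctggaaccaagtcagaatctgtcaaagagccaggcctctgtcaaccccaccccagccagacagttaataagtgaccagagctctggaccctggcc
These stretches held 57.2% and 54.4% G and C, near the median of 52.4% of all windows over the same 250 bases, while that of Slc26a3 held 38.8% and that of Cftr 76.4%.

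Guca2a stood at 293, 213 and 692 CPM in Nsd2 f/f and at 417, 526 and 124 CPM in Nsd2 Vil-KO. Guca2b stood at 26.0, 17.7 and 49.9 CPM in Nsd2 f/f and at 28.8, 42.3 and 13.8 CPM in Nsd2 Vil-KO. Both were highest in Nsd2 f/f replicate 3, next in Nsd2 Vil-KO replicate 2, and lowest in Nsd2 Vil-KO replicate 3, so that the order of the 6 libraries was the same for both peptides. The knockout libraries spanned 4.25-fold for Guca2a and enclosed 2 of the 3 controls. The log2 fold changes were -0.17 ± 0.61 (SE) for Guca2a and -0.14 ± 0.50 (SE) for Guca2b, with intervals from -1.61 to 1.28 and from -1.31 to 1.03. Without Nsd2 f/f replicate 3 they were 0.49 and 0.37, and without Nsd2 Vil-KO replicate 3 they were 0.24 and 0.19.

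Guca2a exceeded Guca2b in every library. The ratio of their CPM was 11.3, 11.99 and 13.9 in Nsd2 f/f and 14.5, 12.4 and 8.96 in Nsd2 Vil-KO, a mean of 12.2 ± 1.96 (SD, n = 6). While each gene varied by 3.62-fold or more over the libraries, the ratio stayed within 8.96 to 14.5. Among 13340 other genes of at least 1 CPM, Guca2b was the one whose pattern over the 6 libraries lay nearest to that of Guca2a, with a root mean square difference of 0.23 on the centred log2 scale, against a median of 0.90.

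**Figure D3:**
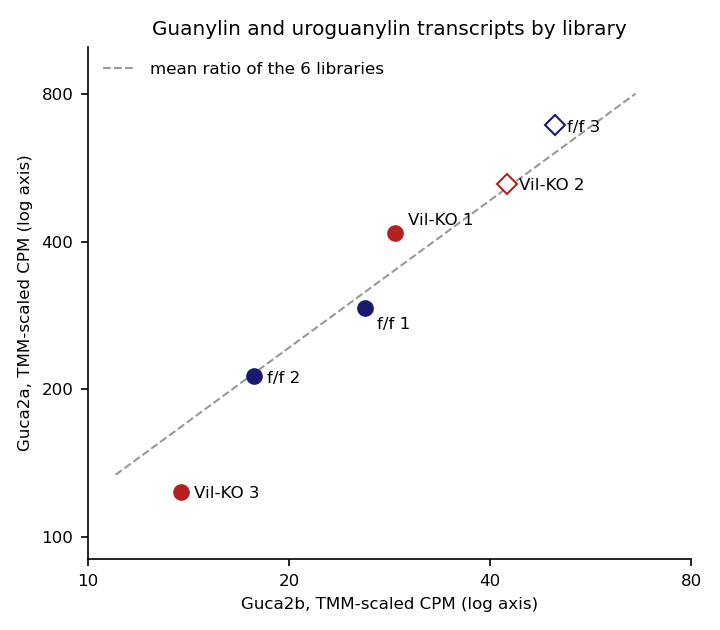
TMM-scaled CPM of Guca2a (vertical) against Guca2b (horizontal), both on log axes, in the 6 libraries, with open diamonds for the libraries with Xist. The points lie along the dashed line, which marks the mean ratio of 12.2, and Nsd2 Vil-KO replicate 3 lies lowest for both genes.

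The receptor varied least. Gucy2c (chr6:136697284-136781765, minus strand) stood at 279.9, 291 and 278 CPM in Nsd2 f/f and at 315, 392 and 376 CPM in Nsd2 Vil-KO. Each knockout library lay above each control, and the controls lay within 1.05-fold of each other. The means were 283 ± 7.15 CPM (SD, n = 3) and 361 ± 40.4 CPM (SD, n = 3). The log2 fold change was 0.35 ± 0.19 (SE), with a 95% interval from -0.09 to 0.79, and did not pass the criterion. Its unadjusted p was 0.103 in edgeR, and the exact permutation p = 0.1 (two-sided) is the smallest that 3 against 3 can give. It remained above 0 in each alternative fit, from 0.29 to 0.44. It passed the criterion with Xist as a covariate, a fit in which 7.82% of genes passed, and with limma-voom, in which 1440 of 14650 passed.

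Prkg2, the cGMP-dependent kinase that acts below the receptor (chr5:98929773-99037351, minus strand), was the least abundant of the 10. It stood at 2.82, 1.30 and 1.13 CPM in Nsd2 f/f and at 3.998, 17.9 and 1.07 CPM in Nsd2 Vil-KO. The value in Nsd2 Vil-KO replicate 2 came from 322 reads and was 16.7-fold that in Nsd2 Vil-KO replicate 3, which came from 21 reads and was the lowest of all. The fitted log2 fold change of 2.08 ± 0.97 (SE) had an interval from -0.22 to 4.38. Without Nsd2 Vil-KO replicate 2 it was 0.50, and in the 4 libraries without Xist 0.29, while it passed the criterion without Nsd2 Vil-KO replicate 3 (2.60) and with DESeq2 (2.12). Those last fits called 515 of 15130 and 742 of 26360 genes.

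Across the 10 genes, Nsd2 f/f replicate 3 held the highest value of 6 and the lowest of 2, and Nsd2 Vil-KO replicate 2 held the highest of the other 4. None of the 10 peaked in any of the 4 libraries without Xist. The members did not vary as 1 block in these libraries. In Nsd2 Vil-KO replicate 2, Slc26a3 and Cftr stood at -1.201 and -1.30 relative to their own mean on the log2 scale, while Prkg2, Kcnq1 and Guca2a stood at 2.70, 0.98 and 0.70. In Nsd2 f/f replicate 3, Slc26a2, Slc26a3, Best2 and Guca2a stood at 1.5, 1.43, 1.16 and 1.09 on the same scale, and Slc12a2 at -0.43. Marker sums of cell states also differed in these libraries. The 10 proliferation markers summed to 381 and 657 CPM in them against 1058 to 1393 CPM in the other 4, and the 10 crypt base and stem cell markers to 264 and 215 CPM against 416 to 529 CPM, and no marker of either list passed the criterion. Their part in the members' values was not tested.

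**Figure D4:**
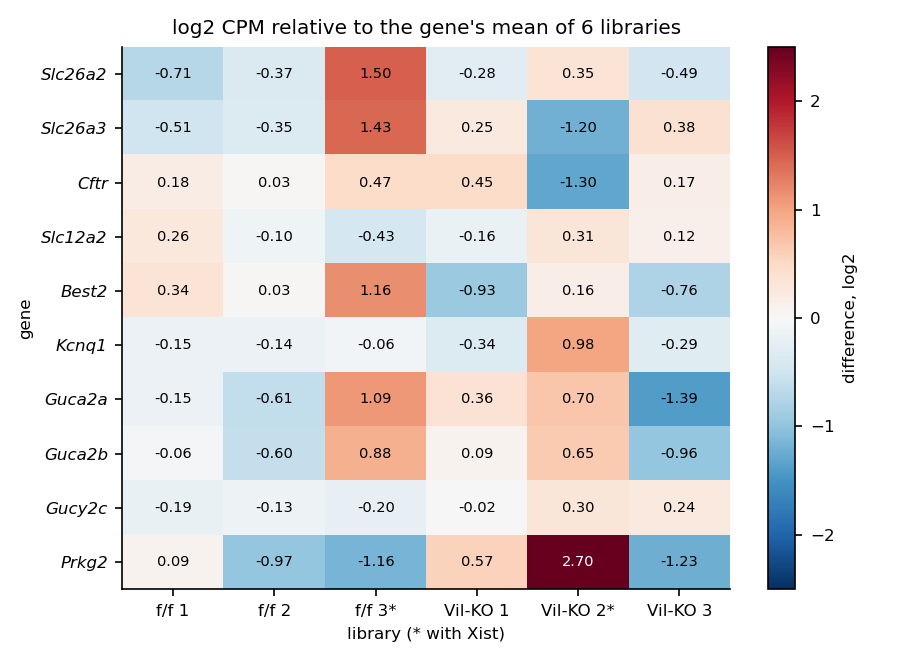
Log2 CPM of each gene (rows) in each library (columns) relative to the gene's mean over the 6 libraries, from blue (below) through white to red (above), with the value printed. The columns marked with an asterisk, the libraries with Xist, hold the strongest colours in most rows, such as 2.70 for Prkg2 and -1.30 for Cftr in Nsd2 Vil-KO replicate 2.

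Per kilobase of exon, Guca2a was the most abundant of the 10, at 635 CPM per kb on average with a range over the libraries of 208 to 1164. Slc26a3 (98.2), Gucy2c (81.3), Best2 (47.4), Slc12a2 (43.6), Guca2b (34.2) and Slc26a2 (33.5 CPM per kb) followed, then Kcnq1 (17.7), Cftr (9.37) and Prkg2 (0.875 CPM per kb). Guca2a lay above Slc26a3 in all 6 libraries, although their ranges touched. From Slc26a3 to Slc26a2, neighbours in this order overlapped and changed places between libraries. Kcnq1 and Cftr, and Cftr and Prkg2, did not overlap. Lengths are those of all annotated exons of a gene, which came to 12370 bases for Slc26a2 and 594 bases for Guca2a.

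The genes around these members were read from 8 lists with 124 genes, of which 98 were tested. No list held more than 1 gene past the criterion, and the 2 of 98 that passed were both higher in Nsd2 Vil-KO. Of all tested genes 3.29% passed, 1.65% higher and 1.65% lower. The medians of the lists ran from -0.14 to 0.17 on the log2 scale, beside 0.00 for all tested genes. Libraries did not overlap between genotypes for 9.90% of all tested genes. The lists on cGMP, sulphate and other chloride channels each held 1 such gene higher and 1 lower in Nsd2 Vil-KO. The cAMP list held 1 higher, and the basolateral list and that of CFTR partners held 1 lower each. The remaining lists held none.

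In the cGMP list (8 of 16 genes tested) 1 gene was higher and 0 were lower past the criterion, with a median of 0.17. The gene was Abcc4, which encodes MRP4, an exporter of cyclic nucleotides. It stood at 19.3, 24.6 and 16.2 CPM in Nsd2 f/f and at 28.6, 45.7 and 28.5 CPM in Nsd2 Vil-KO, without overlap, a log2 fold change of 0.77 ± 0.27 (SE; edgeR, unadjusted p = 0.0242, exact permutation p = 0.1). Leaving out knockout replicate 2 (0.51), or control replicate 1 (0.75) or 3 (0.65), ended the call. The list's most abundant genes per exon length were Vasp, a kinase substrate at the actin cytoskeleton, at 466 to 564 CPM, and Pde9a, a phosphodiesterase that breaks down cGMP. Pde9a stood at 297 to 363 CPM in 5 libraries and at 1836 CPM in Nsd2 Vil-KO replicate 2, the library in which Prkg2 and Kcnq1 were highest.

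The cAMP list (20 of 25 tested) also had 1 gene higher and 0 lower, with a median of 0.03. Pde3a, a phosphodiesterase that cGMP inhibits, stood at 46.6, 51.9 and 63.1 CPM in Nsd2 f/f and at 63.3, 105.8 and 79.6 CPM in Nsd2 Vil-KO. The genotypes did not overlap, but the highest control and the lowest knockout library were nearly level. Its log2 fold change was 0.62 ± 0.24 (SE; edgeR, unadjusted p = 0.0331, exact permutation p = 0.1), and the call was lost when any 1 of 4 libraries was left out, Nsd2 Vil-KO replicates 2 and 3 and Nsd2 f/f replicates 1 and 2, with values of 0.41 to 0.65. Vipr1, a receptor for vasoactive intestinal peptide, and Prkar1a, a regulatory subunit of protein kinase A, led the list by level, at 258 to 349 CPM and 119.9 to 170.1 CPM.

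None of the other 6 lists held a gene past the criterion. Among 5 tested of 10 further anion exchangers and bicarbonate transporters, the median was 0.02. Slc4a2, a basolateral anion exchanger, stood at 101.5 to 159.7 CPM and Slc4a7, a sodium bicarbonate cotransporter, at 101 to 163 CPM. Slc26a1, Slc26a4, Slc26a9, Slc4a1 and Slc4a5 were too low to be tested. The sulphate list (9 of 10 tested) had a median of 0.09, and was led by Papss2, which makes the activated sulphate donor, at 182 to 382 CPM, and by Chst4, a sulphotransferase, at 303 CPM in Nsd2 Vil-KO replicate 2 and 66.7 to 137 CPM elsewhere. Of 15 other chloride channels 13 were tested, with a median of 0.07. Clcn2, a chloride channel of epithelial cells, stood at 229, 281 and 321 CPM in Nsd2 f/f and at 385, 376 and 329.8 CPM in Nsd2 Vil-KO, without overlap and short of the criterion (0.39 ± 0.21, SE). Ano9, of the anoctamin family, stood at 70.5 to 198 CPM.

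In the basolateral list (14 of 17 tested, median -0.14), Atp1b1, a beta subunit of the sodium pump, was among the most abundant genes. It stood at 1503, 1693 and 2599.8 CPM in Nsd2 f/f and at 1530.2, 2529 and 1737 CPM in Nsd2 Vil-KO, with both libraries with Xist above the other 4. Fxyd4, a pump regulator that was picked out after its values were seen, stood at 395 CPM in Nsd2 Vil-KO replicate 2, 37.6 CPM in Nsd2 f/f replicate 3 and 3.12 to 7.15 CPM in the other 4. Atp12a, the colonic proton and potassium pump, picked in the same way, was at 856 CPM in Nsd2 f/f replicate 3 and 102 to 299 CPM elsewhere. Among CFTR partners at the apical membrane (19 of 20 tested, median -0.06), Ezr, which links membrane proteins to actin, stood at 461 to 1004 CPM. Slc9a3r1, the scaffold NHERF1, stood at 152 to 380 CPM. In Nsd2 Vil-KO replicate 2, where Cftr was lowest, Slc9a3r1 was at its lowest and Ezr at its highest. Of the 19 tested partners, 7 were lowest and 4 were highest in that library. The WNK and SPAK list (10 of 11 tested) holds kinases that activate NKCC1, along with other genes. In it 9 genes had a fitted value above 0, with a median of 0.10, beside 50.1% of all tested genes above 0. Of the 10 tested, 7 were highest in Nsd2 Vil-KO replicate 2 and 1 in Nsd2 f/f replicate 3. Its most abundant genes were Cab39 and Cul3, which encode a kinase scaffold and a ubiquitin ligase subunit.

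**Figure D5:**
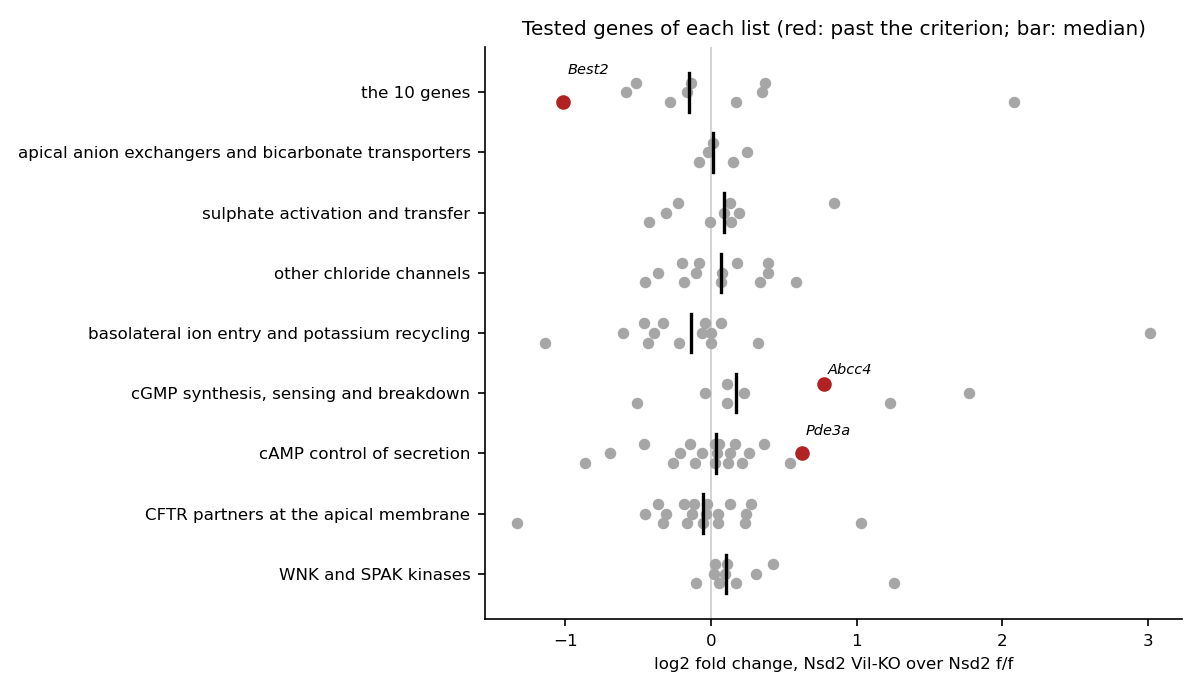
Fitted log2 fold change of Nsd2 Vil-KO over Nsd2 f/f (horizontal axis) of each tested gene in the set of 10 and in 8 lists of related genes; red points are past the screening criterion, vertical bars are medians and the grey line is the median of all tested genes. Best2, Abcc4 and Pde3a are the only red points, and medians lie between -0.15 and 0.17.

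Genes with the most similar pattern were ranked for 3 members by the root mean square difference of centred log2 CPM over the 6 libraries. For Slc26a3 they were Cand2 (0.14), Gstm3 (0.20), Smad6 (0.22), Atp8b5 (0.22) and Sgtb (0.23), against a median of 0.90 over 13340 genes. For Cftr they were Zscan20 (0.10), Pex6 (0.10), Fam120c (0.11), Hunk (0.11) and Gtf2i (0.12), against a median of 0.70. After Guca2b, Guca2a was most like Snrpn (0.24), Mrpl48-ps (0.25), Arl14 (0.26) and Fcgrt (0.28), of which Mrpl48-ps is a pseudogene whose reads can come from its parent gene. These are distances over 6 libraries, of which 2 stood apart.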

How the data were processed

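RNA-seq of colon IECs was analysed in 6 libraries, grouped by the genotype in the sample labels. Values deposited by the authors are raw counts, whole numbers of reads for each gene. The submitters' processing notes name HISAT2 and mm10. The methods describe a directional kit and FPKM from StringTie for the study's own comparison, but neither the counter behind the deposited table nor its strand setting is given in the sources used here, so opposite-strand genes may share reads, and labels and methods differ in the library kit. All 6 columns were used. Symbols, coordinates and exon lengths are from GENCODE vM21 (GRCm38).

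Counts were scaled with TMM factors in edgeR 4.0.16 (R 4.3.3). Genes were kept with filterByExpr and tested with robust quasi-likelihood fits (glmQLFit, glmQLFTest), with Benjamini-Hochberg adjustment over 14650 genes. The test was checked on simulated data. Intervals are 95% intervals of the fit. Permutation tests used log2(CPM + 1). Precision is limited by 3 libraries per genotype, and 3 counts corresponded to 0.146 to 0.242 CPM.

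The members, the lists, the motifs and the alternatives were chosen with earlier results of these data known. Named were the 10 members, each listed gene past the criterion and the 2 most abundant genes of each list. The 5 genes nearest in pattern to 3 members, Nsd2 and Xist were also named, with Clca1, Fxyd4, Atp12a and Lypd8 added. A gene that this rule names is not reported here. Alternatives used DESeq2 1.42.0, limma 3.58.1 voom, other scalings and filters, a replicate block, and libraries left out. The quasi-likelihood method of earlier edgeR versions was added after the data were seen.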

Additional observations from a re-analysis of the deposited data

How the results depend on the processing

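All 10 members were refitted under 18 alternatives, and a fold change limit of 2 was also applied, and Best2, Gucy2c and Prkg2 kept their direction in each. The count of genes past the criterion was 482, and became 1646 in the 4 libraries without Xist, 742 with DESeq2, 1145 with Xist as a covariate, 1440 with limma-voom quality weights, 861 without a filter, 303 with the replicate block, 279 with a fold change above 2, and 323 to 769 with 1 library left out. DESeq2 gave 2 genes with an adjusted p below 0.05, and the other fits gave none. The number of members past the criterion was 2 in the 4 libraries without Xist, with DESeq2, with Xist as a covariate and with limma-voom, 0 with the replicate block, and 0 to 1 with 1 library left out. Members not overlapping between genotypes numbered 4 in the 4 libraries without Xist, beside 44.0% of all genes, 2 with scaling by library size only, beside 9.15%, and 1 to 3 with 1 library left out, beside 15.4% to 29.4%, the 3 being without Nsd2 Vil-KO replicate 2. The members' median log2 fold change ranged from -0.40 to 0.38 with 1 library left out, the highest without Nsd2 f/f replicate 3. Directions turned in the 4 libraries without Xist for Slc26a2 (0.16), Slc26a3 (0.75), Cftr (0.22), Slc12a2 (-0.091), Kcnq1 (-0.16) and Guca2a (0.11), and with limma-voom for Slc26a2 (0.023), Slc26a3 (0.56), Cftr (0.12), Slc12a2 (-0.009) and Kcnq1 (-0.13). With 1 library left out, values ran from -0.94 to 0.44 for Slc26a2, -0.84 to 0.39 for Slc26a3, -0.62 to 0.082 for Cftr, -0.20 to 0.60 for Kcnq1, -0.56 to 0.49 for Guca2a and -0.55 to 0.37 for Guca2b. Deviations of same-numbered libraries from their genotype mean correlated at 0.32, -0.35 and -0.11. These values cannot decide whether the numbers pair libraries, since the libraries with Xist have different numbers and stood apart. With the replicate block Best2 (-1.03) and Pde3a (0.60) missed the criterion. Calls were 50.0% higher in Nsd2 Vil-KO, and 66.8%, 36.2% and 31.3% without Nsd2 Vil-KO replicate 3, Nsd2 f/f replicate 2 and Nsd2 f/f replicate 3. The cause of these changes was not tested.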

Other observations

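Markers of other cell types varied widely between the libraries of each genotype. The 12 leukocyte markers, among them Ptprc, summed to 28.7 to 767 CPM in Nsd2 f/f and 85.3 to 1006 CPM in Nsd2 Vil-KO, and 0 of 12 passed the criterion. The 11 markers of stroma, vessels and muscle summed to 9.86 to 271 CPM and 8.65 to 80.1 CPM, and of 10 tested 1, the endothelial gene Pecam1, passed and was lower in Nsd2 Vil-KO. Among secretory cells, the 8 enteroendocrine markers summed to 140.2 to 228 CPM in Nsd2 f/f and 113 to 138 CPM in Nsd2 Vil-KO, with 0 past the criterion. Of 7 tested tuft cell markers 2 passed and were higher in Nsd2 Vil-KO, Avil and Sh2d6, and the list summed to 14.5 to 37.8 CPM and 24.1 to 47.7 CPM. The 7 posterior Hox genes, which mark the distal colon, summed to 439.8 to 887 CPM and 389.7 to 476 CPM, with 0 of 6 tested past the criterion.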
